A study of Saccharomyces cerevisiae with 12 samples.

Results

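Autophagy genes and vacuolar hydrolases of the budding yeast Saccharomyces cerevisiae are described here as a single set of 44 genes, out of 5636 genes with a value on the arrays. They were defined by name: 36 genes whose symbol in the array annotation is ATG followed by a number, and the hydrolase genes APE1, APE3, PEP4, PRB1, PRC1, CPS1, PHO8 and LAP3. The set was chosen with earlier results of these data known. All 44 were measured, 28 by 2 probes and 16 by 1, and the probes of a gene were averaged. All 44 also passed the requirement of a value on at least 3 of the 4 arrays of each sugar.

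Autophagy wraps cytoplasm or chosen cargo in a double membrane and delivers it to the vacuole, the yeast counterpart of the lysosome. The Atg1 kinase complex starts the membrane, Atg9 vesicles, Atg2 and lipid signals extend it, and 2 ubiquitin-like systems attach Atg8 to it. Selective receptors tether cargo to Atg8, and hydrolases matured by proteinase A break the contents down. In growing cells the same machinery runs the cytoplasm-to-vacuole targeting (Cvt) pathway, which carries aminopeptidase I, the product of APE1, to the vacuole. Several ATG genes are known to be induced by starvation and repressed during growth on rich medium.

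Each of 12 dual-colour arrays compared total RNA of 2 yeast cultures grown on the same sugar, with 4 arrays in 3% raffinose, 4 in 3% galactose and 4 in 2% glucose. The array titles name a gcr1 null mutant, and what strain the other culture was is not stated. GCR1 encodes a transcriptional activator of glycolytic genes. Strain background, other alleles, growth stage and the number of independent cultures are not given in the labels, and the design text says only that there are biological replicates with dye-swapped repeats of each. Some of the 4 arrays of a sugar thus repeat the same RNA, and p-values that treat them as separate samples can be too small. Bulk RNA cannot tell a change in RNA per cell apart from a change in the share of cells that express a gene.

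The value of a gene on an array is a log2 ratio between the strains, and a positive ratio was read as higher in the labelled mutant. This reading is likely but not settled. GPM1, ENO2 and TDH3, textbook glycolytic targets of Gcr1, had mean ratios from -5.39 to -2.16, and this is the basis of the reading. GCR1 itself goes the other way, at 1.67 ± 0.35 in raffinose, 1.58 ± 0.22 in galactose and 0.40 ± 0.13 in glucose (mean ± SD, n = 4 arrays, as for every mean below). Whether its probes lie in the deleted part is not known here. The opposite reading would exchange higher and lower in every sentence that follows.

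The arrays of a sugar fell into 2 pairs. Replicates 1 and 2 correlated with each other across genes at r = 0.952 to 0.981, and so did replicates 3 and 4, while r between the pairs was 0.255 to 0.482 in raffinose, 0.662 to 0.736 in galactose and 0.801 to 0.855 in glucose. Over all spots, named or not, r between the pairs was -0.507 to -0.34 in raffinose, -0.143 to -0.0513 in galactose and 0.100 to 0.118 in glucose, and 114 extreme spots without a gene name changed sign between the pairs. The labels do not settle the direction of single arrays. As deposited, GPM1 read -4.67, -4.60, -6.13 and -6.17 on raffinose replicates 1 to 4, below 0 on both pairs. ENO2 read -4.44, -4.39, -5.73 and -5.63 there, and TDH3 -2.12, -2.04, -3.12 and -2.81. The deposited signs were kept, since the pairs correlate positively over named genes, and raffinose results are also given with replicates 3 and 4 turned. Turning puts GPM1, ENO2 and TDH3 above 0 on those arrays. Means of each pair are given where they differ.

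**Figure D1:**
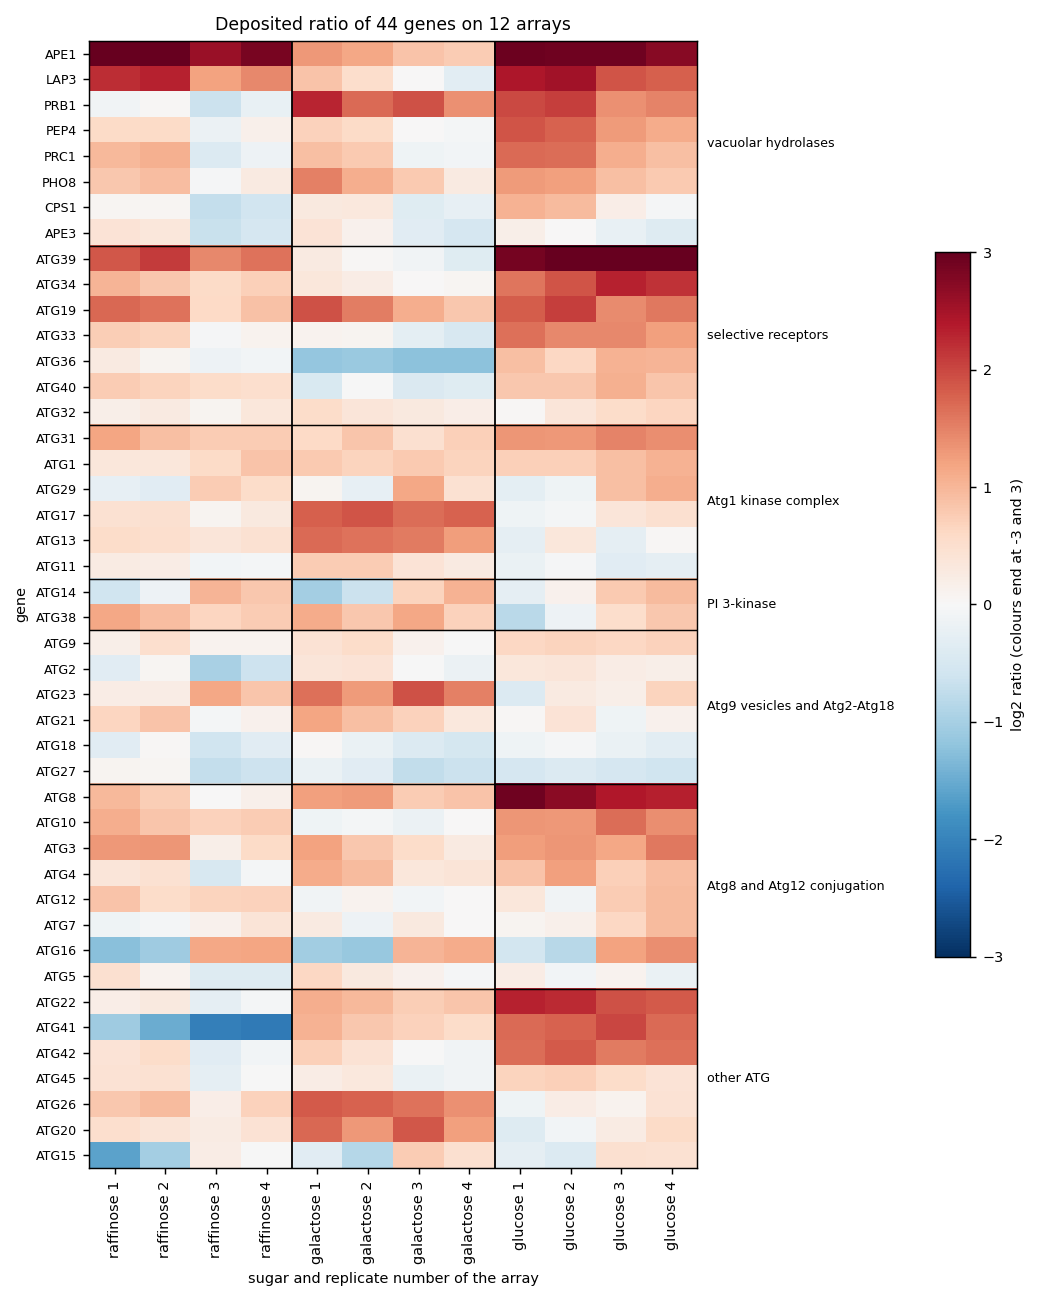
Deposited log2 ratio of each of the 44 genes (rows, grouped by role and ordered by the glucose mean) on each of the 12 arrays (columns, by sugar and replicate number). Red is above 0 and blue below it, and colours end at -3 and 3. All 4 glucose columns are red for ATG8, ATG22, ATG39 and APE1, the galactose columns alone are deep red for ATG13, ATG17, ATG20, ATG23 and ATG26, and ATG41 is blue in raffinose.

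The set as a whole sat above 0 most clearly in glucose. There 27 of the 44 genes were called higher in the labelled mutant and 1 lower (limma, adjusted p under 0.05), against 26.8% of all genes called higher and 31.8% lower. The members' share called higher in glucose was 61.4%. In galactose 20 were called higher and 3 lower, where 34.8% of all genes were higher and 25.2% lower. In raffinose 17 were called higher and 2 lower, beside 22.4% and 14.3% of all genes.

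Median ratios were also highest in glucose. With each array centred on its median, the member medians were 0.23 in raffinose, 0.23 in galactose and 0.68 in glucose. As deposited they differed slightly more between raffinose and galactose. The 44 genes had a median of 0.30 (raffinose), 0.33 (galactose) and 0.62 (glucose), while all genes had 0.052, 0.078 and -0.038. Replicates 1 and 2 gave member medians of 0.44, 0.60 and 0.70 in these sugars, and replicates 3 and 4 gave 0.15, 0.35 and 0.86. Both pairs thus placed the median above 0 in each sugar, but all genes did not centre on 0 on every array. Their medians were 0.285 and 0.234 on raffinose replicates 1 and 2, and 0.296 and 0.223 on galactose replicates 1 and 2. On the other arrays they ran from -0.188 to -0.012. The genes differed widely among themselves, from -1.69 (ATG41) to 3.05 (APE1) in raffinose, from -1.19 (ATG36) to 1.81 (PRB1) in galactose and from -0.50 (ATG27) to 3.77 (ATG39) in glucose.

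**Figure D2:**
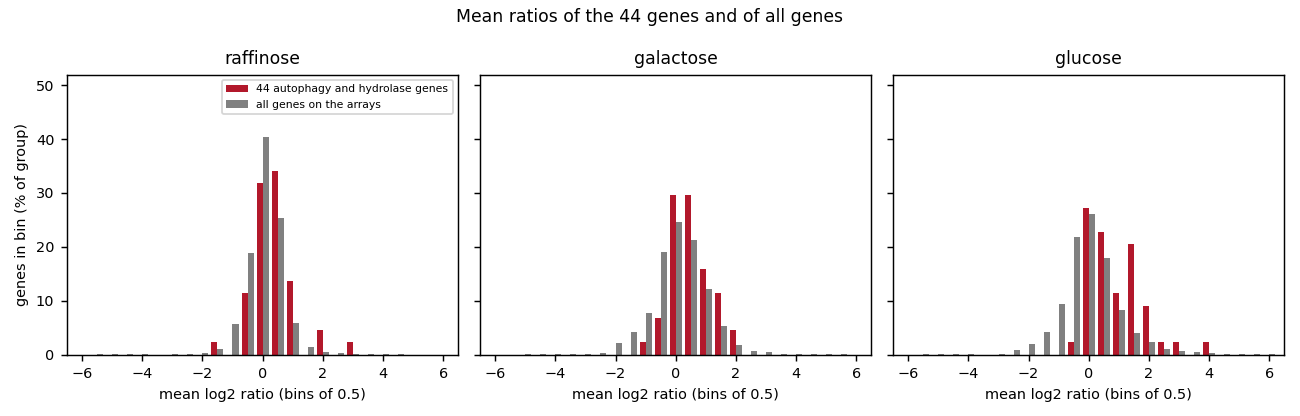
Share of genes (vertical axis, % of each group) by mean log2 ratio over 4 arrays (horizontal axis, bins of 0.5) for the 44 autophagy and hydrolase genes (red) and all 5636 genes (grey) in each sugar. In glucose 9 of the 44 genes lie between 1.25 and 1.75 and only 1 lies below -0.25.

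These counts depend on how the arrays are combined. With the replicate number as a block, 31 members were called in raffinose (25 higher and 6 lower), but 60.4% of all genes were too. The block takes out differences between replicate numbers that the sugars share. A gene whose pairs of arrays disagree can therefore pass with it. When each pair of arrays was averaged first, the fit called 4 members in raffinose, 12 in galactose and 21 in glucose, against 3.26%, 30.0% and 27.8% of all genes. With each array centred on its median, all genes in raffinose split into 25.5% higher and 25.3% lower, and the members into 18 and 4.

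With raffinose replicates 3 and 4 turned, limma called 0 members in raffinose and 0% of all genes. The lowest adjusted p was 0.183 and 9 members had an unadjusted p under 0.05, and the turned median was 0.20. By construction turning removes what both pairs share, and 14 members changed sign. APE1 then averaged 0.33, LAP3 0.47, ATG39 0.22 and ATG41 0.41.

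Over the 3 sugars, 6 members were called higher in all of them, ATG1, ATG3, ATG8, ATG19, ATG31 and APE1. That is 13.6% of the set, beside 8.46% of all genes. In all, 35 members were called higher in at least 1 sugar, or 79.5% beside 50.0% of all genes. None was called lower in all 3 sugars (7.1% of all genes were), and only ATG2, ATG27, ATG36, ATG40 and ATG41 were called lower in any. The 7 genes called in no sugar, APE3, ATG5, ATG14, ATG15, ATG16, ATG18 and ATG29, are 15.9% of the set, beside 18.0% of all genes.

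Among the hydrolases, 7 of 8 rose in glucose, 3 in galactose and 2 in raffinose. Of all genes 26.8%, 34.8% and 22.4% were called higher in these sugars. APE1 rose in all 3 sugars. APE1 read 3.41, 3.36, 2.60 and 2.85 on raffinose replicates 1 to 4, 1.31, 1.15, 0.86 and 0.77 in galactose, and 2.94, 2.92, 2.91 and 2.74 in glucose. All 12 arrays lay above 0, with the galactose arrays lowest and not overlapping the others. The means were 3.05 ± 0.39 (adjusted p = 1.59e-08), 1.02 ± 0.25 (adjusted p = 4.41e-05) and 2.88 ± 0.09 (adjusted p = 6.94e-09), which correspond to 8.31-fold, 2.03-fold and 7.36-fold.

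LAP3 encodes a cysteine aminopeptidase, the yeast bleomycin hydrolase. It read 2.22, 2.32, 1.21 and 1.45 in raffinose, 0.85, 0.53, 0.01 and -0.32 in galactose, and 2.43, 2.51, 1.88 and 1.79 in glucose. Raffinose and glucose were high on every array, and galactose was low and straddled 0. The gene rose in raffinose (1.80 ± 0.55, adjusted p = 7.64e-05) and glucose (2.15 ± 0.37, adjusted p = 4.04e-06). Its galactose mean of 0.27 ± 0.52 did not pass (adjusted p = 0.32, or 0.0176 with the replicate block).

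PRB1, the gene of the serine protease proteinase B, showed another order. Its ratios were -0.11, 0.04, -0.65 and -0.23 in raffinose, 2.29, 1.70, 1.90 and 1.36 in galactose, and 1.97, 2.07, 1.36 and 1.49 in glucose. Galactose and glucose overlapped, and every raffinose array lay below both. PRB1 rose in galactose (1.81 ± 0.39, adjusted p = 1.85e-06) and glucose (1.72 ± 0.35, adjusted p = 2.41e-06), by 3.51-fold and 3.3-fold, but not in raffinose (-0.24 ± 0.30, adjusted p = 0.291).

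PEP4 and PRC1 were called in glucose and in neither other sugar. PEP4, the gene of the aspartyl protease proteinase A that activates other vacuolar hydrolases, read 0.57, 0.57, -0.18 and 0.15 in raffinose, 0.69, 0.58, 0.02 and -0.06 in galactose, and 1.88, 1.77, 1.27 and 1.11 in glucose. Every glucose array was above every array of the other sugars, and the glucose mean was 1.51 ± 0.37 (adjusted p = 1.18e-05). PRC1, which encodes carboxypeptidase Y, read 0.97, 1.06, -0.41 and -0.15 in raffinose, 0.90, 0.78, -0.13 and -0.08 in galactose, and 1.69, 1.67, 1.09 and 0.91 in glucose. Its glucose mean was 1.34 ± 0.40 (adjusted p = 0.000744). In raffinose and galactose PRC1 was above 0 on replicates 1 and 2 and below 0 on replicates 3 and 4. With the replicate block both genes passed in raffinose and galactose. Adjusted p was then 0.00789 and 0.00298 for PEP4 and 0.00675 and 0.00494 for PRC1, against 0.244, 0.152, 0.299 and 0.251 without it. With each pair of arrays averaged first, adjusted p was 0.645 and 0.457 for PEP4 and 0.647 and 0.512 for PRC1.

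PHO8, the vacuolar alkaline phosphatase gene, read 0.80, 0.92, -0.04 and 0.27 in raffinose, 1.5, 1.10, 0.78 and 0.26 in galactose, and 1.28, 1.22, 0.91 and 0.79 in glucose. It rose in galactose (0.91 ± 0.52, adjusted p = 0.0014) and glucose (1.05 ± 0.24, adjusted p = 0.000534). In raffinose it did not pass (0.49 ± 0.45, adjusted p = 0.0696), but did without raffinose replicate 3, galactose replicate 1 or galactose replicate 4 (adjusted p = 0.0306, 0.0497 and 0.0436) and with the replicate block (adjusted p = 0.00192).

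CPS1 was called in glucose and APE3 in no sugar. CPS1, another carboxypeptidase gene, read 0.06, 0.06, -0.72 and -0.58 in raffinose, 0.30, 0.31, -0.36 and -0.25 in galactose, and 1.05, 0.95, 0.19 and -0.04 in glucose. Its glucose mean of 0.54 ± 0.54 passed (adjusted p = 0.0384), but leaving out glucose replicate 1 or 2 ended the call (adjusted p = 0.191 and 0.173). Replicates 3 and 4 averaged 0.08 in glucose. In raffinose CPS1 was called lower with the replicate block (-0.30 ± 0.41, adjusted p = 0.286, or 0.0071 with the block). APE3, which encodes aminopeptidase Y, read 0.42, 0.34, -0.66 and -0.51 in raffinose, 0.41, 0.12, -0.34 and -0.50 in galactose, and 0.17, 0.02, -0.23 and -0.39 in glucose. In each sugar 2 of 4 arrays lay above 0, and no mean passed (adjusted p = 0.668 to 0.764).

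**Figure D3:**
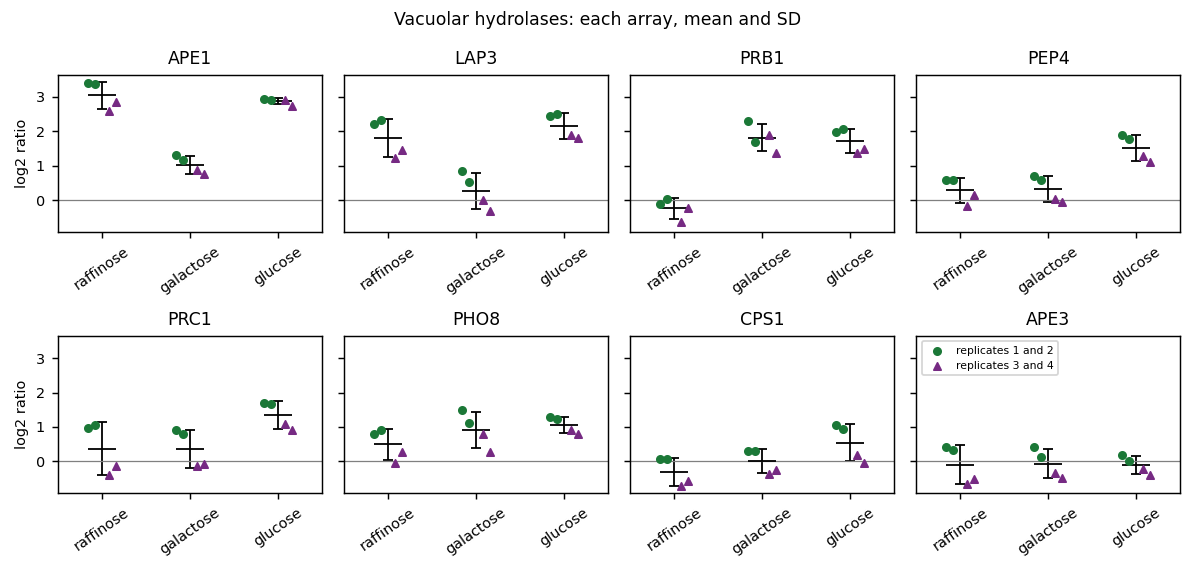
Log2 ratio (vertical axis) of the 8 hydrolase genes in each sugar. Green circles are replicates 1 and 2, purple triangles replicates 3 and 4, and bars the mean ± SD over 4 arrays. APE1 is lowest in galactose, PRB1 in raffinose, and PEP4 and PRC1 are highest in glucose. Circles sit above triangles in most panels.

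Selective receptors are proteins that bind a cargo and Atg8, and ATG33 was grouped with them. All 7 genes grouped so rose in glucose, against 4 in raffinose and 2 in galactose, where 2 others fell. The shares of all genes called higher were 26.8%, 22.4% and 34.8%, and 25.2% were lower in galactose. ATG39, a receptor for nuclear envelope and perinuclear endoplasmic reticulum, had the highest glucose mean of the set. ATG39 read 1.86, 2.10, 1.44 and 1.62 in raffinose, 0.28, 0.03, -0.11 and -0.36 in galactose, and 2.87, 3.94, 3.95 and 4.34 in glucose. The 3 sugars did not overlap, with glucose highest and galactose around 0. ATG39 rose in raffinose (1.76 ± 0.29, adjusted p = 4.12e-05) and by 13.7-fold in glucose (3.77 ± 0.63, adjusted p = 1.29e-08), and its galactose mean of -0.04 ± 0.27 did not pass (adjusted p = 0.875).

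ATG19 encodes the Cvt receptor that binds aminopeptidase I, and ATG34, its neighbour on chromosome XV, a related receptor for alpha-mannosidase. ATG19 read 1.72, 1.62, 0.60 and 0.89 in raffinose, 1.91, 1.54, 1.09 and 0.80 in galactose, and 1.81, 2.07, 1.42 and 1.58 in glucose. It rose in all 3 sugars, by 1.21 ± 0.55, 1.34 ± 0.49 and 1.72 ± 0.28 (adjusted p = 0.000816, 0.000129 and 1.63e-05), and the sugars overlapped. ATG34 read 1.02, 0.82, 0.58 and 0.72 in raffinose, 0.33, 0.22, 0.02 and 0.06 in galactose, and 1.60, 1.88, 2.3 and 2.17 in glucose. Unlike ATG19, its 3 sugars did not overlap. ATG34 rose in raffinose (0.78 ± 0.19, adjusted p = 0.000434) and glucose (1.99 ± 0.32, adjusted p = 5.18e-08), and its galactose mean of 0.16 ± 0.14 did not pass (adjusted p = 0.304).

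ATG36, ATG40, ATG33 and ATG32 complete the group. ATG36, the receptor for peroxisomes, had ratios between -1.24 and -1.11 on all 4 galactose arrays, and fell there by 1.19 ± 0.06 (adjusted p = 1.23e-06), yet it rose by 0.90 ± 0.20 in glucose (adjusted p = 1.17e-05). ATG40, a receptor for endoplasmic reticulum, rose in raffinose (0.62 ± 0.11, adjusted p = 0.000541) and glucose (0.88 ± 0.12, adjusted p = 1.07e-05). In galactose ATG40 was called lower (-0.32 ± 0.21, adjusted p = 0.0171), but not without galactose replicate 1, 3 or 4 (adjusted p = 0.0739, 0.0799 and 0.0518).

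ATG33, which encodes a mitochondrial protein needed to degrade mitochondria, rose in glucose by 1.44 ± 0.17 (adjusted p = 4.04e-06). In raffinose ATG33 (0.37 ± 0.39, adjusted p = 0.0706) passed without raffinose replicate 3 (adjusted p = 0.0314) and with the replicate block (adjusted p = 0.00311). The mitochondrial receptor gene ATG32 moved least, at 0.22 ± 0.11, 0.35 ± 0.15 and 0.40 ± 0.26. Its galactose call (adjusted p = 0.0158) was lost without galactose replicate 1 (adjusted p = 0.0786) and, leaving out glucose replicate 4, so was its glucose call (adjusted p = 0.00788, then 0.0537).

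Of the 6 genes of the Atg1 kinase complex, 5 rose in galactose, 4 in raffinose and 2 in glucose. All genes were called higher at 34.8%, 22.4% and 26.8% in these sugars. ATG13 and ATG17 stood out in galactose. ATG13, the regulatory subunit gene, read 0.56, 0.50, 0.37 and 0.45 in raffinose, 1.71, 1.63, 1.56 and 1.26 in galactose, and -0.28, 0.33, -0.28 and 0.03 in glucose. Its galactose mean was 1.54 ± 0.20 (adjusted p = 4.29e-07, 2.91-fold) and its raffinose mean 0.47 ± 0.08 (adjusted p = 0.00799), whereas glucose straddled 0 (-0.05 ± 0.29, adjusted p = 0.747). ATG17, which encodes the scaffold of the starvation-induced complex, read 0.46, 0.47, 0.08 and 0.30 in raffinose, 1.80, 1.88, 1.67 and 1.76 in galactose, and -0.12, -0.05, 0.37 and 0.47 in glucose. The galactose arrays again lay above all others, with a mean of 1.78 ± 0.09 (adjusted p = 1.57e-07, 3.43-fold).

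The raffinose call of ATG17 (0.33 ± 0.18, adjusted p = 0.0466) was lost without raffinose replicate 1, 2 or 4 (adjusted p = 0.147, 0.164 and 0.105), without glucose replicate 2 or 3 (adjusted p = 0.0532 and 0.0548) and without any 1 of the galactose replicates (adjusted p = 0.0556, 0.0588, 0.059 and 0.0562). The kinase gene ATG1 rose in each sugar, with means of 0.53 ± 0.25, 0.73 ± 0.07 and 0.85 ± 0.17 (adjusted p = 0.00241, 8.91e-05 and 2.52e-05). ATG31, whose product binds Atg17, also rose in each, by 0.90 ± 0.20, 0.66 ± 0.15 and 1.38 ± 0.08 (adjusted p = 3.72e-05, 0.000111 and 1.95e-07). ATG11, a scaffold gene for selective autophagy, rose in galactose only (0.55 ± 0.24, adjusted p = 0.00106). Its glucose mean of -0.22 ± 0.13 passed with the replicate block (adjusted p = 0.119, or 0.0179 with the block).

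ATG38 encodes a subunit of the autophagy phosphatidylinositol 3-kinase. It rose in raffinose (0.87 ± 0.22, adjusted p = 0.00635) and galactose (0.95 ± 0.23, adjusted p = 0.0017) and was at 0.09 ± 0.72 in glucose (adjusted p = 0.722), where the 4 arrays ran from -0.80 to 0.82. ATG14, another subunit gene of that kinase, is described with the genes that differ between array pairs.

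In the Atg9 group, ATG23, whose product is needed for Atg9 movement, read 0.23, 0.23, 1.15 and 0.83 in raffinose, 1.66, 1.27, 1.90 and 1.51 in galactose, and -0.40, 0.26, 0.18 and 0.66 in glucose. Its galactose arrays lay above all others. It rose in galactose by 1.59 ± 0.26 (adjusted p = 1.23e-05, 3-fold). The raffinose call (0.61 ± 0.46, adjusted p = 0.0215) was lost without raffinose replicate 3 or 4 (adjusted p = 0.109 and 0.0887). The glucose mean was 0.18 ± 0.44 (adjusted p = 0.434).

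ATG9 itself, the membrane protein of the seed vesicles, rose in glucose with little spread (0.64 ± 0.03, adjusted p = 0.000319). Its galactose mean of 0.27 ± 0.27 (adjusted p = 0.0523) passed without raffinose replicate 2 or galactose replicate 4 (adjusted p = 0.0475 and 0.021), and with the replicate block (adjusted p = 0.0109). The raffinose mean of ATG9 (0.22 ± 0.19, adjusted p = 0.151) passed with the block (adjusted p = 0.0409). ATG21, which encodes a lipid-binding protein, rose in galactose (0.77 ± 0.37, adjusted p = 0.00164). In raffinose ATG21 (0.38 ± 0.43, adjusted p = 0.0944) passed without raffinose replicate 3 (adjusted p = 0.0395) or with the block (adjusted p = 0.0105).

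ATG27 was the member lower in both galactose and glucose. The means were -0.48 ± 0.25 and -0.50 ± 0.08 there (adjusted p = 0.0135 and 0.0104), and -0.30 ± 0.43 in raffinose (adjusted p = 0.136, or 0.0197 with the block). The galactose call was lost without galactose replicate 3 or 4 (adjusted p = 0.0742 and 0.0562). ATG2, a lipid transfer protein gene, was called lower in raffinose (-0.46 ± 0.44, adjusted p = 0.0304), though not without raffinose replicate 1, 3 or 4 (adjusted p = 0.0544, 0.155 and 0.11). In glucose ATG2 was at 0.28 ± 0.09 (adjusted p = 0.138, or 0.0242 with the block). ATG18, the partner of ATG2, had means of -0.31 ± 0.26, -0.27 ± 0.25 and -0.17 ± 0.12, none of which passed (adjusted p = 0.0678, 0.0695 and 0.239). The raffinose mean of ATG18 passed without raffinose replicate 2 (adjusted p = 0.032) and the galactose mean without galactose replicate 1 (adjusted p = 0.0303), and both passed with the block (adjusted p = 0.00986 and 0.013).

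Of the 8 genes for the conjugation of Atg8 and Atg12, 6 rose in glucose, 4 in raffinose and 3 in galactose, and none fell. Of all genes 26.8%, 22.4% and 34.8% were called higher there and 31.8%, 14.3% and 25.2% lower. ATG8, which encodes the ubiquitin-like protein that coats the membrane, read 0.98, 0.73, 0.02 and 0.15 in raffinose, 1.24, 1.27, 0.77 and 0.85 in galactose, and 2.92, 2.70, 2.40 and 2.34 in glucose. All 12 arrays lay above 0, and glucose was above the other sugars on every array. ATG8 rose by 2.59 ± 0.27 in glucose (adjusted p = 5.99e-08, 6.01-fold) and by 1.03 ± 0.26 in galactose (adjusted p = 0.000156, 2.05-fold). In raffinose it averaged 0.47 ± 0.46 (adjusted p = 0.0422), a call lost without raffinose replicate 1 or 2 or glucose replicate 2 or 3 (adjusted p = 0.214, 0.163, 0.0552 and 0.0529).

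ATG3 and ATG10, the conjugating enzyme genes for Atg8 and Atg12, moved differently in galactose. ATG3 rose in every sugar, at 0.85 ± 0.56, 0.71 ± 0.39 and 1.33 ± 0.18 (adjusted p = 0.0043, 0.00647 and 6.71e-05). ATG10 rose in raffinose (0.84 ± 0.18, adjusted p = 6.59e-05) and glucose (1.42 ± 0.17, adjusted p = 1.63e-07) but lay at -0.09 ± 0.08 in galactose (adjusted p = 0.483). ATG4, the protease gene that processes Atg8, rose in galactose (0.70 ± 0.40, adjusted p = 0.00353) and glucose (0.93 ± 0.21, adjusted p = 0.000488) and was at 0.08 ± 0.43 in raffinose (adjusted p = 0.764).

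ATG12 rose in raffinose (0.70 ± 0.12, adjusted p = 0.00245). In glucose ATG12 passed (0.48 ± 0.47, adjusted p = 0.0111), but leaving out glucose replicate 3 or 4 ended the call (adjusted p = 0.0682 and 0.0838). The activating enzyme gene ATG7 was called in glucose alone (0.45 ± 0.40, adjusted p = 0.0193), and not without glucose replicate 3 or 4 (adjusted p = 0.0852 and 0.134). ATG5, whose product is joined to Atg12, was between -0.05 and 0.26 in the 3 sugars, and its galactose mean passed with the replicate block (adjusted p = 0.164, or 0.0205 with the block).

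ATG genes outside these groups that are described next had their highest mean in glucose or in galactose. ATG22, a vacuolar amino acid exporter gene, read 0.20, 0.30, -0.26 and -0.05 in raffinose, 1.08, 0.98, 0.73 and 0.84 in galactose, and 2.3, 2.24, 1.90 and 1.83 in glucose. The sugars did not overlap. ATG22 rose in galactose (0.91 ± 0.15, adjusted p = 3.79e-05) and by 4.19-fold in glucose (2.07 ± 0.24, adjusted p = 3.27e-08), and was at 0.05 ± 0.26 in raffinose (adjusted p = 0.791).

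ATG42, which encodes a vacuolar carboxypeptidase related to carboxypeptidase Y, read 0.42, 0.55, -0.35 and -0.09 in raffinose, 0.72, 0.44, -0.02 and -0.11 in galactose, and 1.68, 1.83, 1.57 and 1.65 in glucose. Like PRC1 and PEP4, ATG42 rose in glucose (1.68 ± 0.11, adjusted p = 2.43e-06). In raffinose it averaged 0.13 ± 0.42 (adjusted p = 0.566) and in galactose 0.26 ± 0.39 (adjusted p = 0.196, or 0.0361 with the replicate block). ATG45 also rose in glucose (0.59 ± 0.13, adjusted p = 0.00242) and had means of 0.15 ± 0.35 and 0.06 ± 0.25 in raffinose and galactose.

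ATG41, whose product is needed for Atg9 transport, was the member with the widest change of sign. ATG41 read -1.06, -1.5, -2.06 and -2.13 in raffinose, 1.04, 0.81, 0.68 and 0.55 in galactose, and 1.71, 1.76, 2.00 and 1.71 in glucose. All raffinose arrays were below 0 and all others above it. ATG41 fell in raffinose by 1.69 ± 0.51 (adjusted p = 8.76e-06) and rose in galactose (0.77 ± 0.21, adjusted p = 0.00108) and glucose (1.79 ± 0.14, adjusted p = 1.12e-06). With raffinose replicates 3 and 4 turned, its raffinose mean was 0.41 (adjusted p = 0.535).

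ATG20 and ATG26 shared the galactose pattern of ATG13, ATG17 and ATG23. ATG20, a sorting nexin gene, read 0.51, 0.39, 0.24 and 0.43 in raffinose, 1.73, 1.30, 1.86 and 1.23 in galactose, and -0.38, -0.09, 0.25 and 0.57 in glucose. ATG26, a sterol glucosyltransferase gene, read 0.81, 0.94, 0.21 and 0.68 in raffinose, 1.85, 1.78, 1.64 and 1.36 in galactose, and -0.12, 0.22, 0.11 and 0.43 in glucose. For both, every galactose array lay above every array of the other sugars. The galactose means were 1.53 ± 0.31 for ATG20 (adjusted p = 3.43e-06) and 1.66 ± 0.22 for ATG26 (adjusted p = 6.74e-07). ATG26 also rose in raffinose (0.66 ± 0.32, adjusted p = 0.00238). The raffinose mean of ATG20 (0.40 ± 0.11, adjusted p = 0.0599) passed without glucose replicate 1 or 4 (adjusted p = 0.0432 and 0.0421) and with the replicate block (adjusted p = 0.0293).

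**Figure D4:**
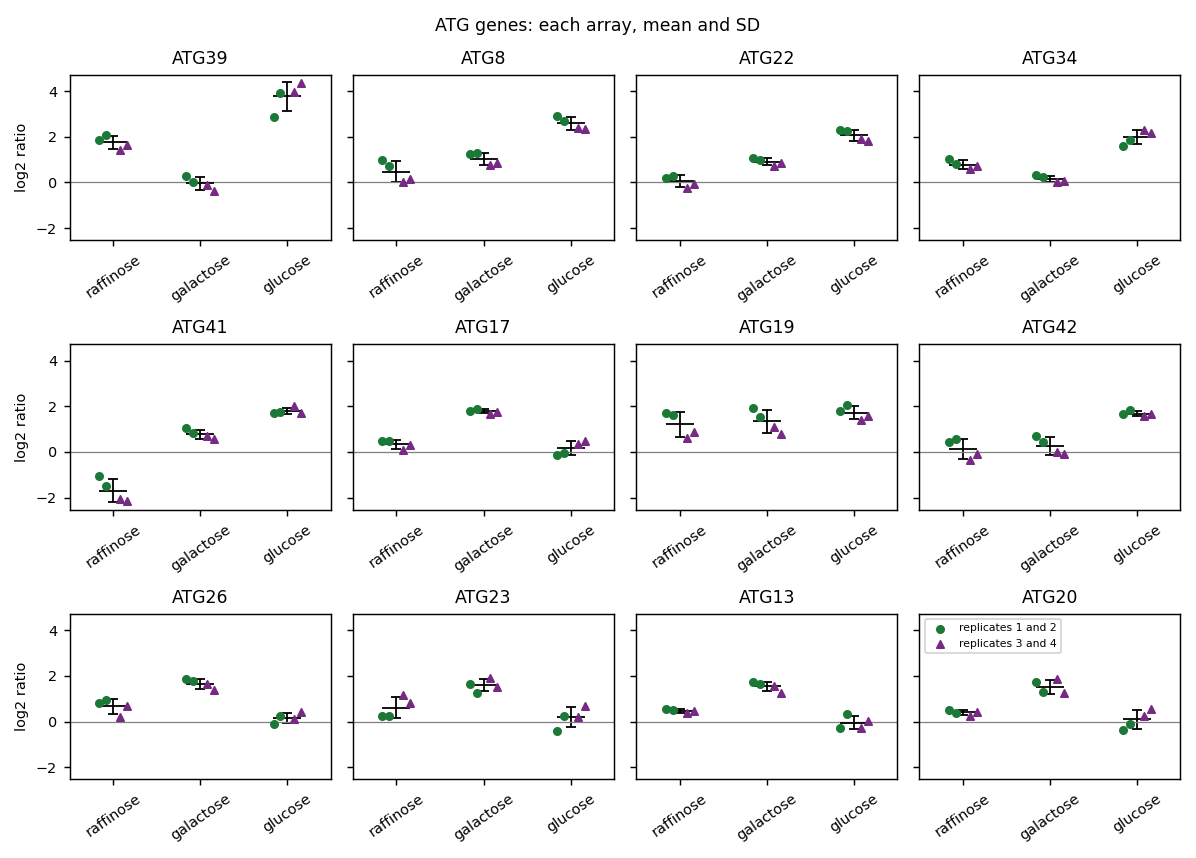
Log2 ratio (vertical axis) of 12 ATG genes in each sugar, drawn as for the hydrolases: green circles are replicates 1 and 2, purple triangles replicates 3 and 4, and bars the mean ± SD over 4 arrays. ATG8, ATG22, ATG34, ATG39, ATG41 and ATG42 are highest in glucose, and ATG13, ATG17, ATG20, ATG23 and ATG26 in galactose. ATG41 alone lies below 0 on all 4 raffinose arrays.

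Some members differed more between the pairs of arrays than between sugars. The first pair (replicates 1 and 2) and the other pair averaged on opposite sides of 0 for 17 of the 44 genes in raffinose (38.6%, beside 45.4% of all genes), 14 in galactose (beside 28.5% of all genes) and 11 in glucose (beside 20.7%). ATG16, whose product completes the complex that attaches Atg8 to lipid, was the clearest. It read -1.25, -1.07, 1.17 and 1.18 in raffinose, -1.04, -1.13, 1.03 and 1.11 in galactose, and -0.55, -0.84, 1.21 and 1.39 in glucose. Replicates 1 and 2 were below 0 and replicates 3 and 4 above it in each sugar, so the means were 0.01 ± 1.35, -0.01 ± 1.25 and 0.30 ± 1.16. No mean of ATG16 passed (adjusted p = 0.993, 0.992 and 0.654), while the block gave an adjusted p = 0.0055 in glucose. With each pair averaged first, the glucose adjusted p of ATG16 was 0.791.

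ATG14, ATG15 and ATG29 behaved in the same way. ATG14 averaged -0.37, -0.83 and -0.08 on replicates 1 and 2 of raffinose, galactose and glucose, and 0.92, 0.85 and 0.87 on replicates 3 and 4. ATG15, the gene of a vacuolar lipase, averaged -1.32, -0.60 and -0.35 on the first of these pairs and 0.11, 0.62 and 0.47 on the other. ATG29, a subunit gene of the Atg17 scaffold, averaged -0.30, -0.08 and -0.22, against 0.66, 0.81 and 1.01. No mean of these 3 genes passed in any sugar (adjusted p = 0.151 to 0.982). With the replicate block ATG14 passed in raffinose and glucose (adjusted p = 0.0485 and 0.0057), ATG15 in raffinose (adjusted p = 0.0012) and ATG29 in galactose and glucose (adjusted p = 0.00842 and 0.00518). ATG29 overlaps the annotated gene SET6 on chromosome XVI, and whether its probes read both was not tested.

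**Figure D5:**
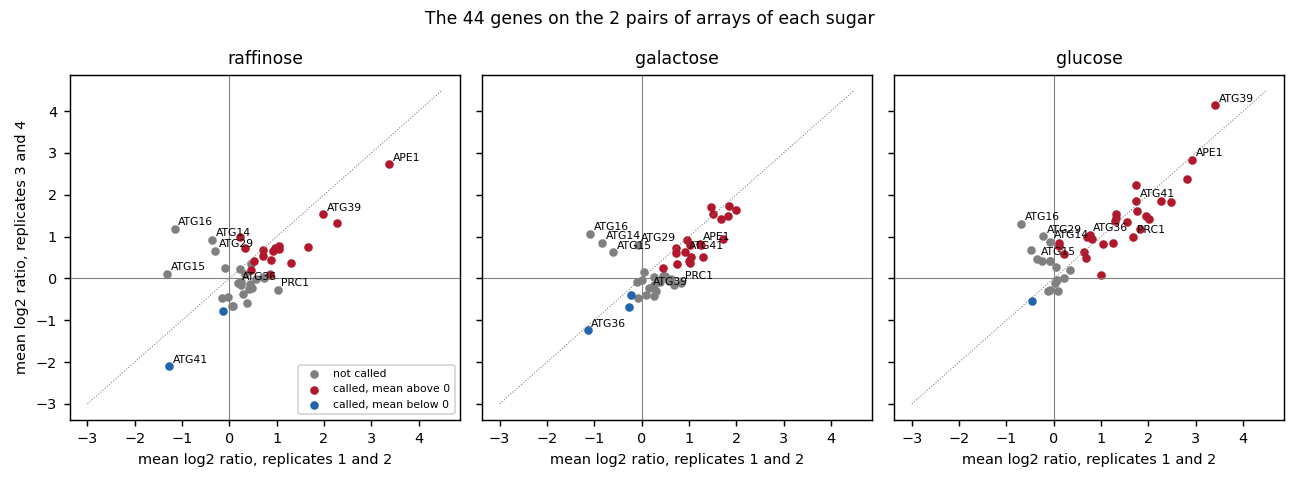
Mean log2 ratio of each of the 44 genes on replicates 1 and 2 (horizontal axis) and on replicates 3 and 4 (vertical axis) of each sugar. Grey points did not pass the test, red points were called with a mean above 0 and blue points below it, and the dotted line marks equal values. ATG14, ATG15, ATG16 and ATG29 lie far above the line in every sugar, and APE1 and ATG39 are at the upper right in raffinose and glucose.

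The strain ratios were next compared between sugars, which asks whether a gene's response to the labelled mutation depends on the carbon source. Between raffinose and glucose, 1 member had a higher ratio in raffinose and 15 a lower one. Of all genes 22.6% were higher and 15.0% lower in that contrast, beside 34.1% of members lower. The median difference was -0.40 over members and 0.07 over all genes. With the replicate block the counts were 4 and 24, and 62.0% of all genes were called. With arrays centred the contrast called 25 members, and all genes split into 24.8% higher and 25.2% lower.

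ATG41 had the largest difference of this contrast, at -3.48 (adjusted p = 1.33e-06), its mean being -1.69 in raffinose and 1.79 in glucose. ATG8 differed by -2.12 (adjusted p = 3.64e-05), ATG22 by -2.02 (adjusted p = 7.13e-06), ATG39 by -2.02 (adjusted p = 0.000189) and PRB1 by -1.96 (adjusted p = 6.64e-05). Among these 5 genes no raffinose array reached the level of any glucose array. Further down were ATG42 (-1.55, adjusted p = 0.000304), PEP4 (-1.23, adjusted p = 0.00227) and ATG34 (-1.21, adjusted p = 0.000259). APE1 (0.18, adjusted p = 0.523) and LAP3 (-0.35, adjusted p = 0.413) did not pass, although the block gave LAP3 an adjusted p = 0.0317.

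The single member higher in raffinose than in glucose was ATG13 (0.52, adjusted p = 0.0279). That call was lost without raffinose replicate 1, 2 or 4 (adjusted p = 0.0652, 0.0609 and 0.0526) and without glucose replicate 1 or 3 (adjusted p = 0.08 and 0.0893). Among the lower members, CPS1 (-0.83, adjusted p = 0.0385) lost its call without raffinose replicate 3 or 4 or glucose replicate 1 or 2 (adjusted p = 0.0917, 0.0942, 0.111 and 0.107). ATG31 (-0.48, adjusted p = 0.0196) lost its own without raffinose replicate 4 or glucose replicate 3 (adjusted p = 0.0582 and 0.06). With raffinose replicates 3 and 4 turned, this contrast called 18 members, 2 higher and 16 lower, beside 48.0% of all genes called in either direction, and ATG41 was at -1.39 (adjusted p = 0.119).

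The replicate block added 12 calls to this contrast. Besides LAP3 they were PRC1 (adjusted p = 0.0554, or 8.77e-05 with the block), ATG15 (0.264, or 0.00579), ATG45 (0.0925, or 0.00584), PHO8 (0.133, or 0.0066), ATG9 (0.0522, or 0.00854) and ATG19 (0.196, or 0.0104), all lower in raffinose. ATG1 (0.123, or 0.0324) and ATG16 (0.792, or 0.0443) were lower too, whereas ATG26 (0.0567, or 0.0206), ATG11 (0.162, or 0.0242) and ATG38 (0.0573, or 0.0328) were higher in raffinose.

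Between galactose and glucose, 8 members were higher in galactose and 16 lower, where 27.8% of all genes were higher and 19.3% lower. Centring the arrays split all genes into 28.1% higher and 31.2% lower, and the members into 7 and 23. The higher members were ATG17 (1.61, adjusted p = 8.11e-06), ATG13 (1.59, adjusted p = 9.22e-06), ATG26 (1.5, adjusted p = 4.01e-05), ATG20 (1.44, adjusted p = 0.000139), ATG23 (1.41, adjusted p = 0.000748), ATG11 (0.76, adjusted p = 0.00168), ATG38 and ATG21. They include 3 of the 6 genes of the Atg1 kinase complex.

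ATG38 (0.86, adjusted p = 0.0308) lost that call without galactose replicate 1 or 3 or glucose replicate 1 or 2 (adjusted p = 0.0709, 0.0751, 0.0816 and 0.0794). ATG21 (0.66, adjusted p = 0.0385) lost it without galactose replicate 1, 2 or 3 or glucose replicate 1, 3 or 4 (adjusted p = 0.111, 0.0851, 0.0596, 0.0815, 0.104 and 0.0683). The arrays of both genes overlapped between the sugars.

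Lower in galactose than in glucose were ATG39 (-3.82, adjusted p = 6.68e-07), ATG36 (-2.08, adjusted p = 5.45e-07), LAP3 (-1.88, adjusted p = 0.000321), APE1 (-1.86, adjusted p = 1.03e-05) and ATG34 (-1.83, adjusted p = 5.01e-06). ATG33 (-1.59), ATG8 (-1.55), ATG10 (-1.51), ATG42 (-1.43), PEP4 and ATG40 (both -1.20) and ATG22 (-1.16) followed. Genes grouped with the receptors above accounted for 5 of these 16. PRC1 (-0.97, adjusted p = 0.0457) lost its call without galactose replicate 3 or 4 or glucose replicate 1, 2 or 3 (adjusted p = 0.12, 0.114, 0.112, 0.11 and 0.0601). ATG45 (-0.52, adjusted p = 0.0396) lost its call without any 1 of the same arrays (adjusted p = 0.111, 0.0907, 0.0842, 0.0947 and 0.0699). PRB1 (0.09, adjusted p = 0.786) and PHO8 (-0.14, adjusted p = 0.721) did not pass. With the replicate block 31 members were called in this contrast, beside 69.1% of all genes. The block added 7 calls, all lower in galactose, for CPS1 (adjusted p = 0.145, or 0.00109 with the block), ATG9 (0.0733, or 0.0154), ATG3 (0.0759, or 0.0161), ATG12 (0.0557, or 0.0209), ATG16 (0.771, or 0.0327), ATG19 (0.317, or 0.0381) and ATG14 (0.559, or 0.0428).

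Between raffinose and galactose, 8 members were higher in raffinose and 10 lower, beside 13.3% and 17.2% of all genes. APE1 (2.03, adjusted p = 1.94e-05), ATG39 (1.80, adjusted p = 0.000539), LAP3 (1.53, adjusted p = 0.00321) and ATG36 (1.22, adjusted p = 0.000103) were higher in raffinose. ATG41 (-2.46, adjusted p = 1.22e-05), PRB1 (-2.05, adjusted p = 6.87e-05) and ATG17 (-1.45, adjusted p = 6.71e-05) were lower. ATG34 (0.63, adjusted p = 0.0176) lost its call without raffinose replicate 1 or galactose replicate 3 (adjusted p = 0.0514 and 0.0531). ATG11 (-0.46, adjusted p = 0.0442) and ATG2 (-0.61, adjusted p = 0.0482) were called lower in raffinose. Both lost the call in most fits that left out 1 array, with adjusted p up to 0.108 and 0.111. The ATG2 arrays overlapped between these sugars. With raffinose replicates 3 and 4 turned, 2 members were higher and 8 lower in this contrast, beside 44.4% of all genes called, and APE1 was at -0.7 (adjusted p = 0.668) and ATG34 at -0.02 (adjusted p = 0.972). The block added 6 calls, 5 of them lower in raffinose, for ATG8 (adjusted p = 0.0845, or 0.00136 with the block), ATG4 (0.0699, or 0.00249), ATG15 (0.31, or 0.0097), PHO8 (0.259, or 0.0286) and CPS1 (0.474, or 0.0413). ATG33 was higher in raffinose (0.0817, or 0.00369). With the block 24 members were called in this contrast, beside 59.6% of all genes.

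Other genes of the pathway were examined as 4 lists, whose counts stand beside shares of all genes called higher and lower of 22.4% and 14.3% in raffinose, 34.8% and 25.2% in galactose, and 26.8% and 31.8% in glucose. Of 13 genes for hydrolase inhibitors and further vacuolar enzymes, 4 rose and none fell in raffinose, 8 rose and 1 fell in galactose, and 8 rose and 1 fell in glucose. AMS1, the vacuolar alpha-mannosidase gene whose product is a cargo of Atg19 and Atg34, read 2.16, 2.08, 1.62 and 1.77 in raffinose, 2.98, 2.93, 2.63 and 2.58 in galactose, and 4.28, 4.38, 3.24 and 3.5 in glucose. AMS1 rose in each sugar (adjusted p = 8.41e-06, 1.34e-07 and 4.82e-09), and its raffinose arrays were lowest.

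Genes for inhibitors of the hydrolases were on this list. PAI3, the inhibitor gene of proteinase A, averaged 1.23 ± 0.13 in raffinose, 1.51 ± 0.05 in galactose and 2.15 ± 0.35 in glucose (adjusted p = 1.38e-05, 6.33e-07 and 2.32e-08). TFS1, the inhibitor gene of carboxypeptidase Y, averaged 0.88 ± 0.28, 1.20 ± 0.20 and 1.65 ± 0.10 (adjusted p = 0.000127, 2.91e-06 and 1.47e-07). PBI2, the inhibitor gene of proteinase B, rose in glucose alone (1.49 ± 0.23, adjusted p = 5.32e-06) and was at -0.31 ± 0.26 in galactose (adjusted p = 0.11), where PRB1 was at 1.81.

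Of 27 genes for membrane delivery and fusion, 8 rose and none fell in raffinose, 17 rose and 1 fell in galactose, and 4 rose and 8 fell in glucose. MON1, whose product helps recruit the vacuolar fusion machinery, was at 1.42 ± 0.18 in galactose (adjusted p = 6.87e-07), and the syntaxin gene TLG2 was at 1.35 ± 0.22 (adjusted p = 2.09e-06). VAM3, the vacuolar syntaxin gene, rose in raffinose (0.58 ± 0.22, adjusted p = 0.00214) and fell in glucose (-1.03 ± 0.08, adjusted p = 9.78e-06). Of 24 regulators of autophagy, 12 rose and none fell in galactose, against 3 and 2 in raffinose and 3 and 5 in glucose. TAP42, a gene of the TOR kinase pathway, was at 1.17 ± 0.11 in raffinose and 1.66 ± 0.20 in galactose (adjusted p = 1.81e-05 and 2.91e-07). The stress activator gene MSN4 was at 1.56 ± 0.17 in glucose (adjusted p = 1.81e-06), and the GATA factor gene GAT1 at -1.22 ± 0.12 in raffinose (adjusted p = 3.43e-06).

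The 17 measured genes of the vacuolar proton pump and its assembly moved both ways, with medians of 0.23, -0.17 and -0.06 in raffinose, galactose and glucose. In raffinose 3 rose and 1 fell, in galactose 2 rose and 5 fell, and in glucose 1 rose and 2 fell. The raffinose calls of VMA1, VMA21, VMA22 and VPH1 were lost without raffinose replicate 2 (adjusted p = 0.189, 0.0601, 0.112 and 0.0634). VMA1, a catalytic subunit gene, rose in galactose (0.90 ± 0.42, adjusted p = 0.00123) and glucose (0.82 ± 0.37, adjusted p = 0.00261). In galactose VMA21 was at -1.21 ± 0.42 (adjusted p = 0.000452) and VMA3 at -0.87 ± 0.59 (adjusted p = 0.0119). The VMA3 call was lost without galactose replicate 3 (adjusted p = 0.0783).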

How the data were processed

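Per the labels, Cy5 is the dye of channel 1 and Cy3 that of channel 2 throughout. The authors deposited 1 log2 ratio per probe and array. The normalization, the log base and the handling of dye swaps were not found in the labels or headers, and the base was read as 2 from the size of the values. Spot brightness was not analysed here, so precision rests on how many arrays there are.

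Of 10807 probes, 9271 carry 1 gene symbol, 0 several and 1536 none. All 9271 matched the gene table of RefSeq assembly R64, used for names and gene order. The 2 probe means of a member differed by at most 0.41.

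The model was fitted in limma 3.58.1 (R 4.3.3; lmFit, eBayes) on 5636 genes and 12 arrays with 1 mean per sugar and no block. Means were tested against 0 and against each other, with Benjamini-Hochberg adjustment over all genes and a threshold of 0.05. The fit was tested on simulated data with independent arrays, which cannot show the effect of array pairs or of repeats of the same RNA.

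Deviations of same-numbered arrays correlated across sugars at r = 0.52 to 0.89, and after removal of the pair means at -0.32 to 0.15. Before that removal each correlation exceeded 0.1, the criterion for pairing, so a second fit blocked on replicate number was set beside the unblocked one. Blocked values are given where they change a call.

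Array values are given for all hydrolases and for the 12 ATG genes with the largest mean among 29 called with 1 sign on all 4 arrays; from each neighbouring list, up to 3 called genes per sugar qualified. ATG16, and PBI2 as the third inhibitor, were added after their values were seen. The members and lists were chosen with earlier results of these data known. No promoter or protein sequence was used here.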

Additional observations from a re-analysis of the deposited data

Results flagged for a closer look

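Glucose replicate 4 of APE1, at 2.74, stood apart from the other 3 glucose arrays, which lay between 2.91 and 2.94. Its gap to the nearest of them was 0.872 of the whole range. Over 60 groups of 4 arrays examined in this way, chance alone picks out about 1 in 20 if arrays are independent. These arrays fall into pairs, so that rate may not hold here.

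The screen for differences between sugars covered 20 members with array values, so the list below is not complete for the whole set. ATG36, for example, was at -2.08 in galactose minus glucose and was not screened. Given here are differences of log2 ratios with adjusted p under 0.05 in the fit on all 12 arrays. They also held in every alternative other than turned raffinose signs. Lower in raffinose than in glucose were ATG41 (-3.48), ATG8 (-2.12), ATG22 (-2.02), ATG39 (-2.02) and PRB1 (-1.96). Lower in galactose than in glucose were ATG39 (-3.82), LAP3 (-1.88), APE1 (-1.86), ATG34 (-1.83), ATG8 (-1.55) and ATG42 (-1.43). Higher in galactose than in glucose were ATG17 (1.61), ATG13 (1.59), ATG26 (1.5), ATG20 (1.44) and ATG23 (1.41). Between raffinose and galactose APE1 was higher in raffinose (2.03), and ATG41 (-2.46) and PRB1 (-2.05) were lower.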

How the results depend on the processing

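Counts of members called are given with the percentage of all genes called in the same setting. In raffinose 19 (36.7%) became 31 (60.4%) with the replicate block, 31 (64.4%) with an orientation term, 32 (64.9%) and 36 (80.9%) with replicates averaged across the pairs (1 with 3 and 2 with 4, or 1 with 4 and 2 with 3), 4 (3.26%) averaged within pairs, and 0 (0%) by limma with replicates 3 and 4 turned, where 9 had an unadjusted p under 0.05. Alternatives chosen after seeing the data gave 33 (72.3%) with an orientation term for each sugar, 34 (71.5%) on replicates 1 and 2 alone and 29 (68.6%) on replicates 3 and 4 alone. In galactose, 23 (60.0%) became 12 (30.0%) averaged within pairs and 36 (78.7%) on replicates 1 and 2 alone. For raffinose minus glucose, 16 (37.6%) became 28 (62.0%) with the block, 31 (66.0%) with the orientation term, 30 (65.9%) and 40 (80.8%) averaged across pairs, 5 (2.34%) within pairs, 25 (49.9%) with arrays centred, 33 (72.7%) with an orientation term for each sugar, 29 (66.8%) on replicates 1 and 2 alone and 28 (59.3%) on replicates 3 and 4 alone. For galactose minus glucose, 24 (47.1%) became 15 (14.1%) averaged within pairs. For raffinose minus galactose, 18 (30.5%) became 31 (78.6%) averaged as 1 with 4 and 2 with 3, 3 (1.49%) within pairs, 28 (71.2%) with an orientation term for each sugar and 10 (44.4%) turned. In these settings all-gene counts moved in the same direction as member counts, except with turned signs in raffinose minus galactose. Other member counts stayed within 1.5 times.

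Leaving out 1 array gave 16 to 20 members in raffinose, 21 to 24 in galactose, 25 to 28 in glucose, 14 to 18 for raffinose minus glucose, 20 to 25 for galactose minus glucose and 15 to 18 for raffinose minus galactose. Member medians ran from 0.27 to 0.42, 0.31 to 0.42 and 0.64 to 0.69 in raffinose, galactose and glucose.

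Over 20 members with array values, 2700 values under alternatives comprised 2502 on the same side of the threshold, 87 that lost it, 107 that gained it and 4 that reversed. The reversals came with turned signs: ATG41 (0.41) and ATG23 (-0.38) in raffinose, and APE1 (-0.7) and ATG34 (-0.02) in raffinose minus galactose. A further 56 changed sign without being called either way. The replicate block lost none of these calls and gained 19.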
